A study of Homo sapiens with 12 samples.

Results

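The products of the 10 genes described here act together in the cellular defence against oxidants. The small MAF proteins MAFF, MAFG and MAFK are basic leucine zipper factors without a transactivation domain of their own, which bind DNA as dimers with a partner of the cap'n'collar (CNC) family at antioxidant response elements. NRF2, the product of NFE2L2, is the partner that activates such genes, and BACH1 is a haem-binding partner that represses them. KEAP1 holds NRF2 for ubiquitination by a CUL3 ligase, and NRF1, the product of NFE2L1, is a related CNC factor known for the control of proteasome genes. HMOX1 (haem oxygenase 1), NQO1 (a quinone reductase) and GCLM (the modifier subunit of the enzyme for the first step of glutathione synthesis) are widely used target genes of this system.

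The members were taken by gene name from the deposited transcript table, using transcripts that matched a reference model (class code =) or shared a splice junction with one (class code j). All 10 genes were present among 56537 gene names, with 105 transcripts in 64 start-site groups (transcripts sharing a transcription start), and all 10 were among the 16680 genes that passed the filter of a summed FPKM above 0.5 in at least 3 libraries. FPKM is the number of fragments per kilobase of transcript normalised to the mapped fragments of the library, so levels can be compared between genes. On hg19 (GRCh37) the genes lie as follows. MAFF (chr22:38596774-38612514) and HMOX1 (chr22:35776354-35790207) are on the plus strand of chromosome 22. MAFG (chr17:79876146-79885611, minus strand) and NFE2L1 (chr17:46125691-46138907, plus strand) share chromosome 17. MAFK spans chr7:1570338-1582679 and BACH1 chr21:30566392-31003071, both on the plus strand. NFE2L2 (chr2:178083395-178257484), KEAP1 (chr19:10596801-10614234), NQO1 (chr16:69740899-69760571) and GCLM (chr1:94350755-94375012) are on the minus strand.

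The samples were cultures of HCT116, an established human colorectal carcinoma cell line. Cells were kept at 21% O2 (0 h) or moved into 1% O2 for 1, 2 or 24 h, with 3 biological replicates per time point and 12 poly(A) strand-specific RNA-seq libraries in all. All values come from this single line. Exposure to low oxygen started 24 h after the cells were plated. The methods do not give the time from plating to harvest of the 0 h cells, so time in culture and time in low oxygen cannot be told apart. Read numbers cannot be taken from FPKM, so the spread between replicates is the only error given.

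All 6 hypoxia marker genes checked (CA9, VEGFA, NDRG1, EGLN3, ADM and PDK1) were called higher at 24 h, with a median log2 fold change of 3.29. The summed FPKM of 5 epithelial markers was 1998 to 2819 at 0 h and 2491 to 2730 at 24 h, mostly KRT8, KRT18 and KRT19. Of the 5, CDH1 was called higher at 24 h (7.42 to 26.3 FPKM, log2 fold change 1.76) and KRT19 passed the p threshold alone (0.99). That of 8 leukocyte, endothelial and fibroblast markers was 3.61 to 4.48 at 0 h and 15.4 to 20.3 at 24 h, of which CD68 and COL1A1 made up nearly all and were both called higher (2.04 and 1.59); the other 6 were at or near 0 FPKM. A listed 0 can be a failed estimate, since TXNIP, CBR1 and NNT, which many cell types express, were also listed at or near 0 in all libraries, so the zeros do not show that such cells were absent. The part of these marker genes in the results below was not tested. In bulk RNA, fewer cells expressing a gene and less RNA per cell cannot be told apart. Transcripts shorter than 300 bases accounted for 57.0% to 87.6% of all FPKM in single libraries. Rescaling every library to the same sum (TPM scaling) therefore shifted the median log2 fold change of all genes to -0.88 at 2 h and -0.68 at 24 h, against -0.02 and -0.05 in the values as deposited. Dividing each library by the median ratio of its genes to their geometric mean over all libraries (median-of-ratios scaling) used factors of 0.967 to 1.025. Under that scaling 0, 1 and 3 member genes were called at 1, 2 and 24 h, the same counts as in the values as deposited.

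Start regions were examined for 8 of the 10 genes, which had 14 windows in the RefSeq promoter table (GRCh38.p14), each running from 250 bases before to 50 bases after an annotated start. MAFK and HMOX1 had no entry. Each window matched the GRCh37 sequence exactly at 1 place on its chromosome, and the coordinates below are those of GRCh37. The windows printed belong to MAFF, GCLM, KEAP1 and NFE2L2. The second MAFF window, at the start of ENST00000426621, and the windows of BACH1, MAFG, NFE2L1 and NQO1 are not printed. Capitals mark 3 of the motifs searched on both strands, namely the hypoxia response core (ACGTG or GCGTG), the antioxidant response core (TGACNNNGC) and the cyclic AMP response element (TGACGTCA). The sequences run 5′ to 3′ on the transcribed strand and hold the region upstream of the annotated RefSeq start and the first bases after it.
MAFF, start of ENST00000338483, chr22:38597751-38598050, plus strand: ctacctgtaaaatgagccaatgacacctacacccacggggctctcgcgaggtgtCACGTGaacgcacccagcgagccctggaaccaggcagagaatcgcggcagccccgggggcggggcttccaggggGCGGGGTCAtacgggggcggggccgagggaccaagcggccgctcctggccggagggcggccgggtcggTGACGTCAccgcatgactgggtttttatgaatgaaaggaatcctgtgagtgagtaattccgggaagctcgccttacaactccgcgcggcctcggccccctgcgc
GCLM, start of ENST00000370238, chr1:94374937-94375236, minus strand: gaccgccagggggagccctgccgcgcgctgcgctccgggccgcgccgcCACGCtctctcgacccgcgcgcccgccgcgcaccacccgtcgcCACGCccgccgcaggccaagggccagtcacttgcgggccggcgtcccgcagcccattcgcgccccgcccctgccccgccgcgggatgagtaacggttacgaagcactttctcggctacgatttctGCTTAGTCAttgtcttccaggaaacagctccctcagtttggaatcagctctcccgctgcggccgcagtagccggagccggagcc
KEAP1, window near the start of ENST00000393623, chr19:10613398-10613697, minus strand: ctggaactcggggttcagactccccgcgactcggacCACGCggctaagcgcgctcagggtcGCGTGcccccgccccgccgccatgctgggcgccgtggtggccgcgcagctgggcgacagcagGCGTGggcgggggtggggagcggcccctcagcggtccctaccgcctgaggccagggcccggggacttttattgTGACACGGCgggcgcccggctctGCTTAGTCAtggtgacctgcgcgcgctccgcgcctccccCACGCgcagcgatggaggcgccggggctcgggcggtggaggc
KEAP1, start of ENST00000171111, chr19:10613983-10614282, minus strand: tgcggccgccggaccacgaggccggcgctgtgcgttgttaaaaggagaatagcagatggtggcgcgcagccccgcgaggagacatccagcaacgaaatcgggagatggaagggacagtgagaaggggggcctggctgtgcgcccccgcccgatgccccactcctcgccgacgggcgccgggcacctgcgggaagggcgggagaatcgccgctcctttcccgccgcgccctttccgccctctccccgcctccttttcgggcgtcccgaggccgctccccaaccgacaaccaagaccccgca
NFE2L2, start of ENST00000397062, chr2:178129406-178129705, minus strand: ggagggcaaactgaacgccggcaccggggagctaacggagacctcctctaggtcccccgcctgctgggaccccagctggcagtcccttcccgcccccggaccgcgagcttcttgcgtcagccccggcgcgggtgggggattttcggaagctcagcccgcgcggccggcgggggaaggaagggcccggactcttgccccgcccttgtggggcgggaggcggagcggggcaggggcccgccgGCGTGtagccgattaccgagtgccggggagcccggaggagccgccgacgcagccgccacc
NFE2L2, window near the start of ENST00000397063, chr2:178128810-178129109, minus strand: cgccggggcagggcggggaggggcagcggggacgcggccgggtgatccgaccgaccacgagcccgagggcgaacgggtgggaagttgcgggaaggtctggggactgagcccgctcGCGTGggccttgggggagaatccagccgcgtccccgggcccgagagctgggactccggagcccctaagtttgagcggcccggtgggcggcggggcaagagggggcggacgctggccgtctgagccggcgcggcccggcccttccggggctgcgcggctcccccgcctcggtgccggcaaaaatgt

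The printed MAFF window held an antioxidant response core, a cyclic AMP response element at position -54 and the palindrome CACGTG at -196. CACGTG is the E-box and also reads as a hypoxia response core on both strands. It was also in the second MAFF window and in that of MAFG. The GCLM window and the downstream of the 2 KEAP1 windows held the same 9 letters GCTTAGTCA (the antioxidant response core on the other strand), at -34 and -31 from the RefSeq starts of the windows. In the KEAP1 window this site lies downstream of the start of ENST00000393623, which is at -125. The upstream KEAP1 window held none of the 3 motifs. Both NFE2L2 windows held a hypoxia response core and no antioxidant response core. Over all 8 genes, 10 of 14 windows held a hypoxia response core, as did 48.4% of the 35093 windows of this length in the table. The antioxidant response core was in 3 of 14 windows (13.4% of all windows) and the cyclic AMP response element in 1 of 14 (1.85%). These matches describe letters in a window and were not tested for binding.

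At 21% O2 the levels of the 10 genes covered a wide range. NQO1 was the most abundant at 285 ± 30.6 FPKM (SD, n = 3), followed by NFE2L1 at 79.8 ± 2.85, NFE2L2 at 51.7 ± 1.75 and KEAP1 at 42.4 ± 1.74. GCLM stood at 36.2 ± 7.52 FPKM, and its libraries overlapped with those of KEAP1. MAFG (17.0 ± 2.85) and MAFK (14.5 ± 1.203) overlapped with each other and lay above HMOX1 at 10.98 ± 0.98. MAFF (6.33 ± 0.49) and BACH1 (6.08 ± 0.43) were the lowest and could not be separated. The plot of FPKM by library shows all values.

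**Figure D1:**
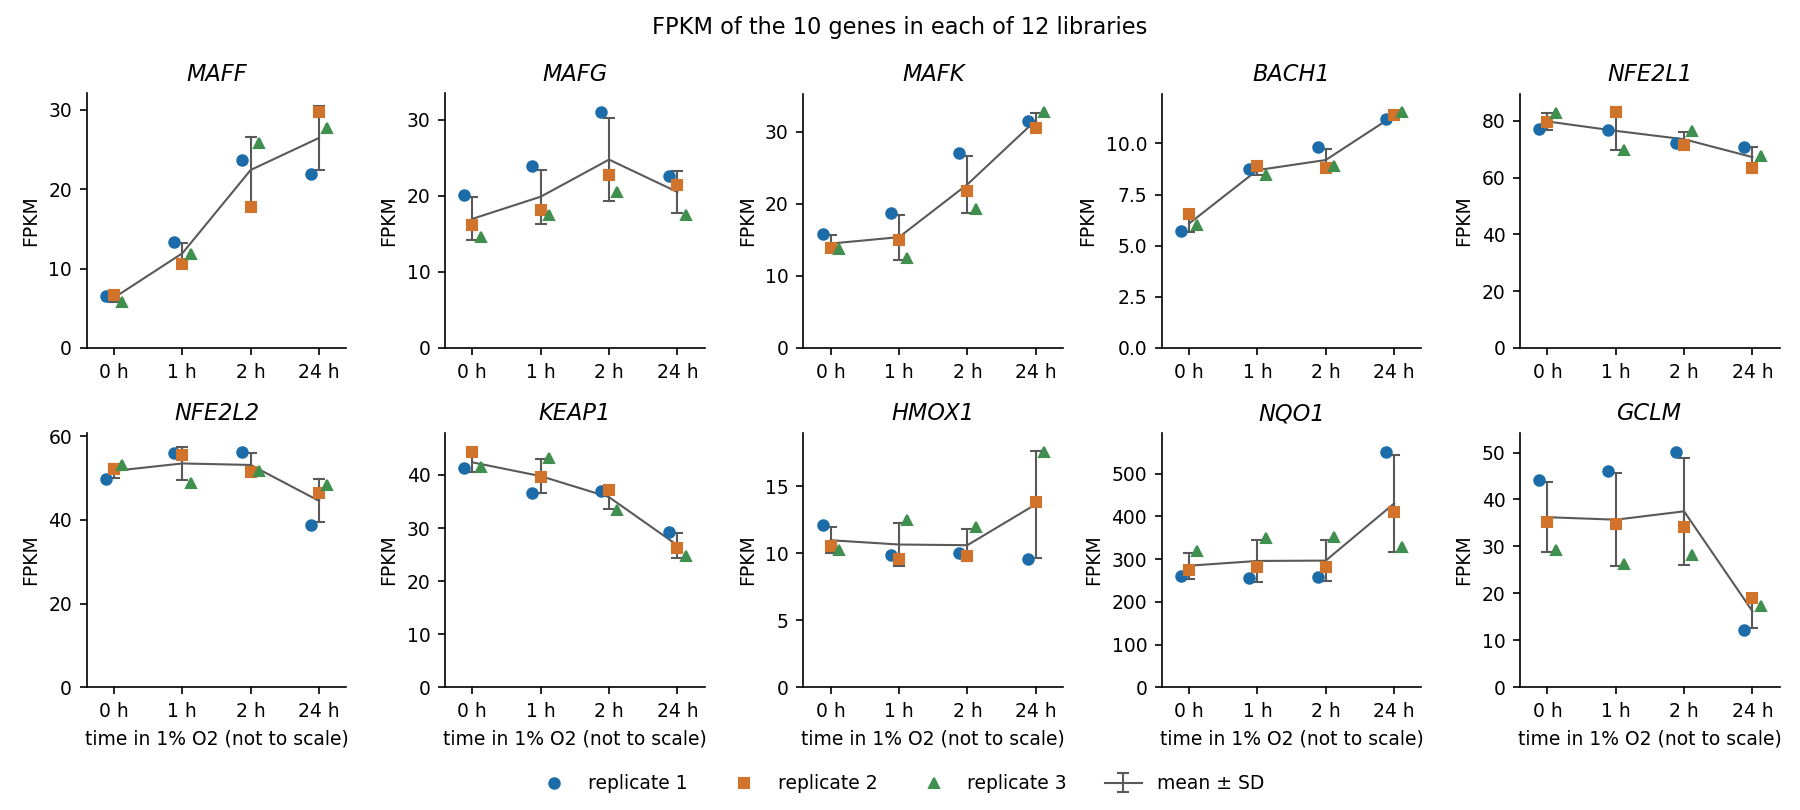
FPKM (y axis, linear from 0) of each gene in the 12 libraries, by time in 1% O2 (x axis, 3 libraries per time point, not to scale); symbols mark the replicate number and the line joins means with SD bars. MAFF, MAFK and BACH1 climb over the time course, KEAP1 and GCLM are lowest at 24 h, and NFE2L2 and HMOX1 show little separation between times up to 2 h.

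Of the small MAF genes, MAFF showed the earliest and largest difference from 21% O2. Its FPKM was 6.53, 6.68 and 5.77 in the 0 h libraries, 13.3, 10.6 and 11.8 at 1 h, 23.6, 17.8 and 25.8 at 2 h, and 22.0, 29.7 and 27.7 at 24 h. Every library at 1, 2 and 24 h lay above every 0 h library, while the 2 h and 24 h libraries overlapped. The log2 fold change was 0.86 (SE 0.16) at 1 h, which did not pass the threshold (limma, adjusted p = 0.51; unadjusted p = 0.00012). At 2 h MAFF rose by 1.73 (SE 0.16, 3.32-fold on the log2(FPKM + 0.5) scale, adjusted p = 0.0016), and it had the smallest p of all 16680 genes tested. At 24 h the change was 1.97 (SE 0.16, 3.92-fold, adjusted p = 1.3e-06), and 24 h did not differ detectably from 2 h (0.24, SE 0.16, adjusted p = 0.22). The call at 2 h was lost when any 1 of the 0 h libraries or 2 h replicate 1 was left out, with adjusted p values of 0.013 to 0.018 and log2 fold changes of 1.67 to 1.77, and also with no filter on low genes (adjusted p = 0.016) and with the 6 libraries of the contrast alone (adjusted p = 0.018). Under TPM scaling MAFF was called at neither time, with 0.64 at 2 h (adjusted p = 0.15) and 1.07 at 24 h (adjusted p = 0.028), which are 1.52 and 1.75 above the median of all genes under that scaling. Median-of-ratios scaling kept both calls, with 1.75 at 2 h (adjusted p = 0.0025) and 2.01 at 24 h (adjusted p = 1.7e-06).

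MAFK followed later. It stood at 15.9, 13.9 and 13.7 FPKM at 0 h, 18.7, 15.0 and 12.5 at 1 h, 27.0, 21.8 and 19.3 at 2 h, and 31.5, 30.5 and 32.7 at 24 h. The 1 h libraries spread around those of 0 h, and all 2 h and 24 h libraries were above them. The log2 fold change was 0.62 (SE 0.15) at 2 h, short of the threshold (adjusted p = 0.11, and 0.036 with replicate number as a block; -0.42 under TPM, 0.46 above the median of all genes), and MAFK rose by 1.10 (SE 0.15, 2.14-fold, adjusted p = 6.9e-05) at 24 h. Under TPM scaling the MAFK change at 24 h was 0.24 (adjusted p = 0.65), which is 0.92 above the median of all genes under that scaling.

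MAFG, the most abundant small MAF at 0 h, passed the threshold at no time point. Its FPKM was 20.1, 16.2 and 14.6 at 0 h, 24.0, 18.2 and 17.5 at 1 h, 31.0, 22.8 and 20.5 at 2 h, and 22.6, 21.5 and 17.4 at 24 h. The 2 h libraries lay above all 0 h libraries and the 24 h libraries overlapped with them. MAFG differed by a log2 fold change of 0.52 at 2 h (SE 0.18, adjusted p = 0.21, and 0.028 with the block) and 0.27 at 24 h (SE 0.18, adjusted p = 0.22, and 0.023 with the block). Under TPM these values were -0.52 and -0.55, or 0.36 and 0.13 above the median of all genes.

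Added together, the small MAF transcripts came to 37.8 ± 4.32 FPKM (SD, n = 3) in the 0 h libraries. They came to 47.2 ± 7.67 FPKM after 1 h, 69.9 ± 10.3 FPKM after 2 h and 78.5 ± 2.85 FPKM after 24 h. MAFF made up 16.8% ± 1.42 of this sum before low oxygen, then 25.5% ± 2.45 after 1 h, 32.3% ± 6.15 after 2 h and 33.6% ± 4.11 after 24 h. The share of MAFG was 44.8% ± 2.32 at 0 h and 26.2% ± 3.65 at 24 h, without overlap between the libraries. These sums and shares, and the ratios given further on, were chosen after the values had been seen and carry no test.

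**Figure D2:**
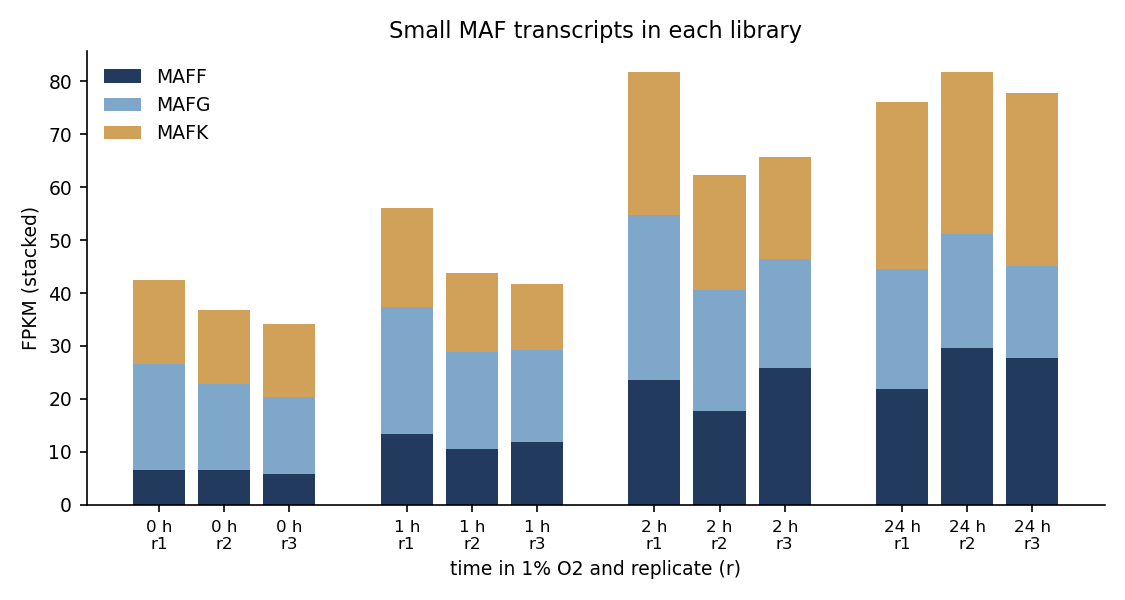
Stacked FPKM (y axis, from 0) of MAFF, MAFG and MAFK in each of the 12 libraries (x axis, by time in 1% O2 and replicate r1 to r3). The summed height is 34.1 to 42.5 FPKM at 0 h and 76.1 to 81.7 FPKM at 24 h, and the dark MAFF segment has the largest relative gain.

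BACH1 was measured at 5.71, 6.55 and 5.99 FPKM at 0 h, at 8.77, 8.88 and 8.43 at 1 h, at 9.83, 8.82 and 8.92 at 2 h, and at 11.2, 11.4 and 11.5 at 24 h. No library in low oxygen overlapped with those at 0 h, and the 24 h libraries lay above all others. The log2 fold change was 0.48 (SE 0.10, adjusted p = 0.65) at 1 h and 0.56 (SE 0.10, adjusted p = 0.038, and 0.029 with the block) at 2 h. At 24 h it reached 0.85 (SE 0.10, adjusted p = 2e-05), which passed the p threshold but not the fold threshold. Under TPM the BACH1 values were -0.42 at 2 h and 0.03 at 24 h, or 0.47 and 0.71 above the median of all genes.

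The activating partner NFE2L2 showed no called change. It stood at 49.8, 52.1 and 53.2 FPKM at 0 h, 55.9, 55.6 and 48.9 at 1 h, 56.3, 51.4 and 51.7 at 2 h, and 38.7, 46.5 and 48.4 at 24 h. Only at 24 h were all libraries below those of 0 h, with a log2 fold change of -0.22 (SE 0.10, adjusted p = 0.082). It was -0.12 (adjusted p = 0.28) without 24 h replicate 1, and -1.07 under TPM (adjusted p = 0.041), or -0.39 relative to the median of all genes. BACH1 FPKM expressed as a percentage of NFE2L2 FPKM was 11.8% ± 0.70 in the 0 h libraries, 16.3% ± 0.82 after 1 h, 17.3% ± 0.15 after 2 h and 25.7% ± 2.78 after 24 h. NFE2L1 gave 77.0, 79.6 and 82.7 FPKM at 0 h and 70.6, 63.4 and 67.7 at 24 h, with values between 69.5 and 83.0 at 1 and 2 h. Its log2 fold change at 24 h was -0.25 (SE 0.09, adjusted p = 0.029), passing neither threshold, and under TPM it was -1.10 (adjusted p = 0.039), or -0.43 relative to the median.

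KEAP1, the inhibitor of NRF2, was lower at 24 h. Its FPKM was 41.3, 44.4 and 41.5 at 0 h, 36.7, 39.5 and 43.2 at 1 h, 37.0, 37.2 and 33.3 at 2 h, and 29.3, 26.3 and 24.7 at 24 h. The 2 h libraries were below the 0 h libraries and the 24 h libraries below both. The log2 fold change was -0.24 (SE 0.10, adjusted p = 0.27, and 0.19 with the block) at 2 h and -0.66 (SE 0.10, adjusted p = 0.00012) at 24 h. The latter passed the p threshold and not the fold threshold (under TPM it was called at -1.48, or -0.80 relative to the median of all genes). Without all libraries of replicate 2 it was -0.61 and missed the p threshold (adjusted p = 0.019). KEAP1 at 24 h was also lower than at 2 h (-0.42, SE 0.10, adjusted p = 0.0034). Per unit of NFE2L2 FPKM, KEAP1 FPKM was 82.0% ± 3.67 at 0 h and 61.1% ± 13.0 at 24 h.

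Of the 3 target genes, GCLM alone passed both thresholds. It gave 44.2, 35.3 and 29.2 FPKM at 0 h, 46.0, 34.9 and 26.2 at 1 h, 50.2, 34.0 and 28.2 at 2 h, and 12.2, 19.1 and 17.4 at 24 h. The early time points repeated the wide 0 h spread, in which replicate 1 was highest, whereas all 24 h libraries lay below all others and replicate 1 was the lowest of them. GCLM fell by 1.14 on the log2 scale at 24 h (SE 0.25, adjusted p = 0.0022) and by 1.17 relative to 2 h (SE 0.25, adjusted p = 0.0021). Under TPM scaling the GCLM change at 24 h was -1.93, or -1.25 relative to the median of all genes. The call at 24 h was lost without 0 h replicate 1 (-0.99, adjusted p = 0.012), without 24 h replicate 1 (-0.95, adjusted p = 0.011), without all libraries of replicate 1 (-0.80, adjusted p = 0.0075) and without all those of replicate 2 (-1.27, adjusted p = 0.029). GCLC, the catalytic subunit of the same enzyme, was not called at 24 h (0.30, SE 0.17, adjusted p = 0.15), and GCLM FPKM as a percentage of GCLC FPKM was 116.5% ± 31.0 at 0 h and 41.4% ± 6.03 at 24 h. The GCLM sum includes a short transcript without a defined coding sequence, described below.

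NQO1 differed in the opposite direction without passing the thresholds. Its FPKM was 261, 275 and 319 at 0 h, 257, 281 and 349.9 at 1 h, 257, 281 and 351 at 2 h, and 552, 411 and 328 at 24 h. Replicate 3 was highest up to 2 h and lowest at 24 h, and the lowest 24 h library lay just above the highest 0 h library. The log2 fold change at 24 h was 0.57 (SE 0.18, adjusted p = 0.02). It was 0.37 (adjusted p = 0.086) without 24 h replicate 1 and 0.83 without all libraries of replicate 3. Over the settings tried the adjusted p of NQO1 at 24 h ranged from 0.0012 to 0.62. Under TPM its change was -0.30, or 0.37 above the median of all genes. HMOX1 gave 12.1, 10.6 and 10.3 FPKM at 0 h and 9.60, 13.8 and 17.6 at 24 h, with 9.61 to 12.5 at 1 and 2 h. Its libraries overlapped between all time points, and the log2 fold change at 24 h was 0.27 (SE 0.19, adjusted p = 0.25; -0.54 under TPM, 0.13 above the median). This value rested on single libraries, at 0.49 (adjusted p = 0.02) without 24 h replicate 1 and 0.069 (adjusted p = 0.76) without 24 h replicate 3. It was 0.56 (adjusted p = 0.038) without all libraries of replicate 1 and 0.025 (adjusted p = 0.92) without all those of replicate 3.

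Counted over all 10 genes, none was called at 1 h by limma, where 0.006% of all genes were called higher, and 2 (MAFF and BACH1) had an unadjusted p under 0.05, against 4.61% of all genes. At 2 h 1 gene was called, against 0.018% of all genes called higher, or 3 genes in all (PIM1 and ERRFI1 were the others), and 5 of 10 had an unadjusted p under 0.05, against 15.3% of all genes. At 24 h MAFF and MAFK were called higher, against 8.76% of all genes, and GCLM lower, against 9.51%. By adjusted p alone, 3 were higher (18.3% of all genes) and 2 lower (23.2%). Between 2 h and 24 h, 1 of 10 was called lower (7.28% of all genes). Groups that did not overlap with 0 h were found for 4 genes higher and 2 lower at 2 h, against 12.2% and 13.1% of all genes. At 24 h there were 4 higher and 4 lower, against 27.6% and 32.8%. With 10 genes, the counts at 24 h lie near the background shares, and the 1 call at 2 h is MAFF.

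**Figure D3:**
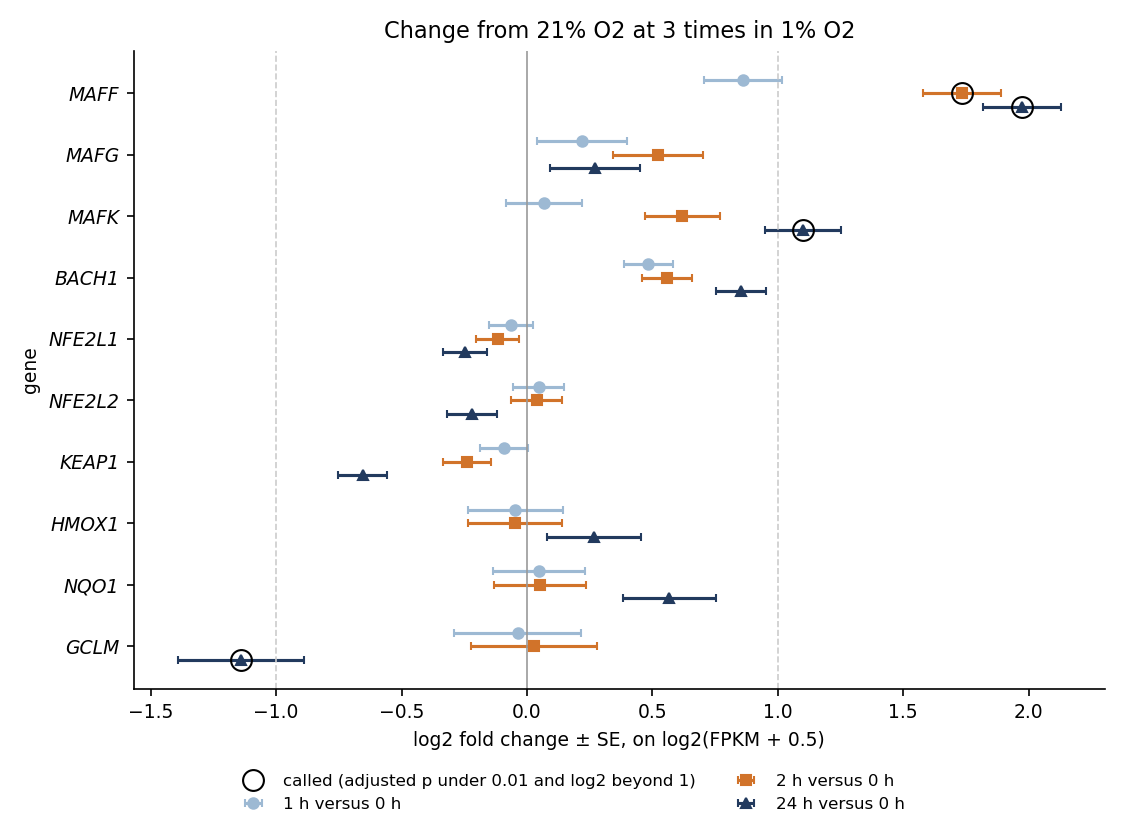
Log2 fold change ± SE on log2(FPKM + 0.5) (x axis) of each gene (y axis) at 1, 2 and 24 h in 1% O2 relative to 21% O2, 3 libraries per time point; black rings mark the calls and dashed lines the fold threshold. Rings stand at MAFF (2 h and 24 h), MAFK (24 h) and GCLM (24 h), and KEAP1 and BACH1 at 24 h lie inside the dashed lines at -0.66 and 0.85.

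The start-site groups showed which transcripts carried these differences. Of 64 groups, 33 passed the filter and 28 held at least 5% of the FPKM of their gene at some time point. MAFF came almost wholly from the group of ENST00000338483, whose promoter is printed above, with 96.1% of its FPKM at 0 h and 97.1% at 24 h. This group rose by 1.98 (SE 0.20, adjusted p = 3.3e-05) at 24 h. The group of ENST00000426621 held 12.2% of MAFF FPKM at 2 h, a value set by 2 h replicate 2 (4.73 FPKM, against 0.88 and 1.61 in the others). MAFG came from the group of ENST00000357736, with 99.7% of its FPKM at 0 h.

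For MAFK, the group of ENST00000343242 held 93.4% at 0 h and 88.8% at 24 h and rose by 1.03 (SE 0.16, adjusted p = 0.00053). A downstream group, led by a transcript related to ENST00000403150 (annotated as a target of nonsense-mediated decay), rose by 1.43 (SE 0.25, adjusted p = 0.0013). It went from 1.29, 0.77 and 0.86 FPKM at 0 h to 4.70, 2.40 and 3.52 at 24 h. Its share of MAFK was 6.65% ± 1.31 at 0 h and 11.2% ± 3.54 at 24 h, a difference that did not pass the test of shares (adjusted p = 0.14).

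The start-site groups of NFE2L2 differed in their changes, while its summed level was not called. The group of ENST00000397062, whose start is at chr2:178129455, had 38.5, 34.3 and 35.9 FPKM at 0 h and 17.8, 25.3 and 26.2 at 24 h, all lower and without overlap. Its share of NFE2L2 FPKM was 77.3%, 65.8% and 67.4% at 0 h and 46.0%, 54.4% and 54.2% at 24 h. In the test of shares, over groups that passed the filter, the difference was -18.7 percentage points (SE 4.0, adjusted p = 0.024, and 0.046 with replicate number as a block). It passed in 10 of 12 fits that each left out 1 library. Leaving out a 1 h or 2 h library could not change the difference itself, which stayed at -18.7 points. With a 0 h or 24 h library left out, it failed without 0 h replicate 1 (adjusted p = 0.075) and without 24 h replicate 1 (0.059). The other such fits passed at adjusted p values of 0.04 to 0.048. The group of ENST00000397063, with its start at chr2:178128869 and downstream of the other, held 15.25% ± 5.09 at 0 h and 27.2% ± 7.18 at 24 h (11.95 points, SE 5.4, adjusted p = 0.23). A short transcript, ENST00000458603, took 0.31% at 0 h and 3.98% at 24 h. It was listed at 0, 0.27 and 0.22 FPKM at 0 h and lay between 1.00 and 2.48 FPKM in all libraries in low oxygen. It thus passed the filter of 0.5 FPKM only through the libraries in low oxygen, where it was higher, and its level and share are given as a description without a test.

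KEAP1 was also unequal between its start sites. The group of ENST00000171111, at chr19:10614032, had 9.69, 10.0 and 8.06 FPKM at 0 h, 6.27, 6.21 and 5.74 at 1 h, 5.86, 7.48 and 4.71 at 2 h, and 5.28, 4.51 and 3.19 at 24 h. All libraries in low oxygen lay below those at 0 h, and the group fell by 1.03 (SE 0.20, adjusted p = 0.0019) at 24 h. Its share of KEAP1 changed by -5.95 points (SE 2.6), which did not pass the test of shares (adjusted p = 0.21). The group of ENST00000393623, at chr19:10613572, was at 25.4 to 28.2 FPKM up to 2 h and 20.8, 19.9 and 20.1 at 24 h, a log2 fold change of -0.35 (SE 0.08, adjusted p = 0.0059). Its share of KEAP1 was 61.4% ± 3.82 at 0 h and 76.1% ± 5.17 at 24 h, a difference of 14.3 points in the test of shares (SE 3.7, adjusted p = 0.048). That difference did not pass with the block (adjusted p = 0.074), with transcripts over 0.5 FPKM in 3 libraries (0.065) or with class code = alone (0.072), and it passed in 2 of the 12 fits with a library left out. The window of ENST00000171111 and the window nearest to ENST00000393623 are printed above. ENST00000393623 starts at position -125 of its window, so the antioxidant response cores there, at -54 and -31, lie downstream of that start.

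**Figure D4:**
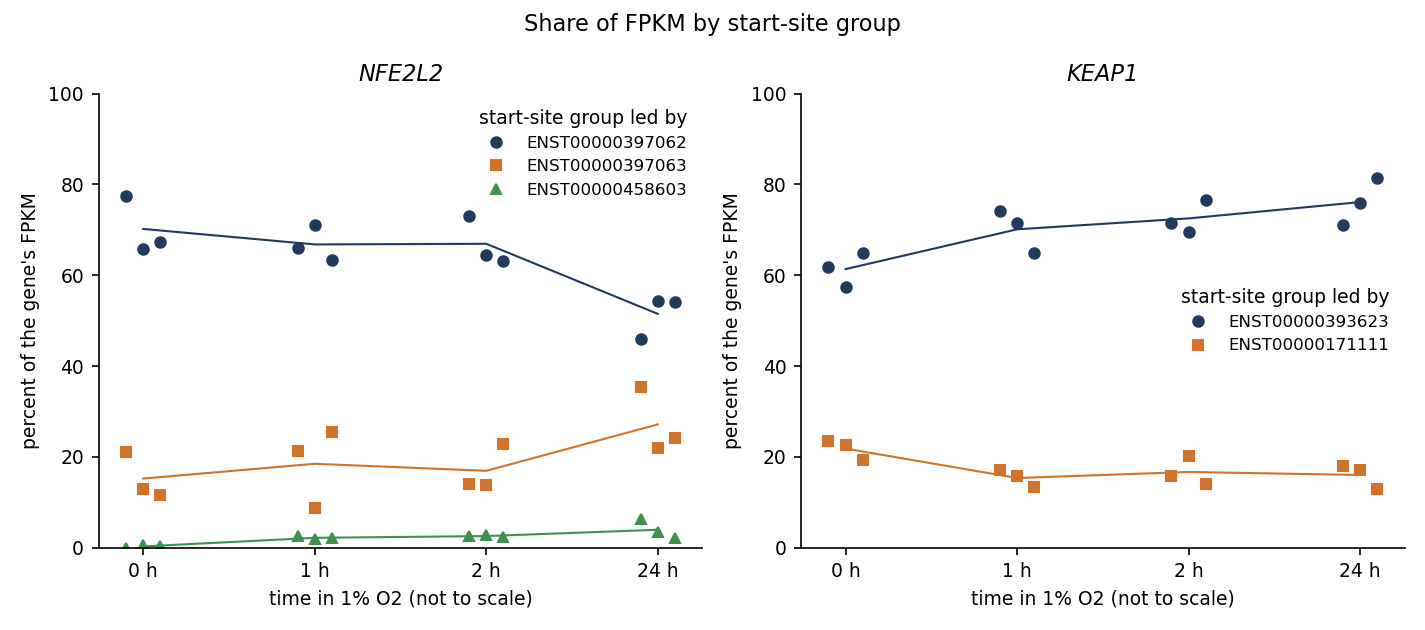
Percent of the FPKM of NFE2L2 (left) and KEAP1 (right) in the named start-site groups (y axis, 0 to 100%) by time in 1% O2 (x axis, not to scale), 3 libraries per time point as points with lines through the means. The leading NFE2L2 group drops from 70.2% at 0 h to 51.5% at 24 h, and the leading KEAP1 group goes from 61.4% to 76.1%, the latter a difference that does not pass with replicate number as a block.

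GCLM was divided between a long transcript (ENST00000370238), a variant of it from another start (13.3% at 0 h and 19.8% at 24 h, not called) and a short transcript, ENST00000467772. This short transcript of 625 bases is annotated as having no defined coding sequence. The summed GCLM level and its ratio to GCLC include it. The short one held 50.5% of GCLM FPKM at 0 h and 48.2% at 24 h and fell by 1.21 (SE 0.26, adjusted p = 0.0041). For the long one the change was -1.30 (SE 0.36, adjusted p = 0.016), which missed the p threshold. The NQO1 groups of ENST00000379046 and ENST00000564043 held 52.7% and 46.3% at 0 h and 58.8% and 40.5% at 24 h, and neither was called. BACH1 was led by ENST00000286800, with 56.6% at 0 h and 52.1% at 24 h, and its minor groups varied between libraries from 0 to several FPKM. Of these, a group related to ENST00000399921 held 21.4% at 0 h and 19.4% at 24 h, and that of ENST00000435072 held 15.1% and 11.2%. The group of ENST00000447177 held 14.6% at 1 h and was listed at 0 at 2 h, and a further group related to ENST00000399921 held 8.67% at 24 h. HMOX1 came from the group of ENST00000216117, with 98.1% at 0 h and 94.2% at 24 h. No group of BACH1 or HMOX1 was called.

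The 4 NFE2L1 groups with at least 5% were also not called. The leading one, of ENST00000357480, held 67.2% at 0 h and 65.0% at 24 h, and that of ENST00000583060 (no defined coding sequence) held 19.2% and 14.0%. The group of ENST00000361665 held 7.99% and 14.8% (6.8 points in the test of shares, SE 2.0, adjusted p = 0.079), and that of ENST00000577411 held 4.44% and 5.59%. Among the minor groups of NFE2L2, ENST00000446151 held 6.25% at 0 h and 12.5% at 24 h and ENST00000586532 held 5.56% and 2.12%. Those of KEAP1 were ENST00000592478, with 9.11% and 4.10%, and ENST00000590237, with 5.12% and 3.64%, and none of these 4 was called or passed the test of shares. In all, 4 start-site groups of members were called higher at 24 h (6.72% of all groups) and 2 lower (6.93%). Shares passed the test for 3 groups, against 6.98% of all groups tested. Both the 4 and the 3 include the NFE2L2 group of ENST00000458603, which the filter admitted only through the libraries in which it was high, so these counts are no support for a change of the members. For shares, with replicate number as a block the count was 1, and with single libraries left out it was 0 to 2.

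The other genes of the pathway were read from 7 lists with 76 genes, of which 62 passed the filter. At 1 h and 2 h limma called none of the 62, and 0 and 6 had an unadjusted p under 0.05, against 4.61% and 15.3% of all genes. At 24 h 4 were called higher, against 8.76% of all genes, and 2 lower, against 9.51%, and 56 were not called. By adjusted p alone 11 were higher (18.3% of all genes) and 15 lower (23.2%). The median log2 fold change of the 62 genes at 24 h was -0.13, beside -0.05 for all genes.

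The largest difference was in GLRX, a glutaredoxin that reduces protein-glutathione disulphides, with 10.4 ± 2.86 FPKM (SD, n = 3) at 0 h and 114.2 ± 13.5 at 24 h (3.42, SE 0.20, adjusted p = 2.3e-07). ABCC3, an organic anion exporter, rose by 1.86 (SE 0.22, adjusted p = 2.7e-05). IDH2, the mitochondrial NADP-dependent isocitrate dehydrogenase, rose by 1.62 (SE 0.27, adjusted p = 0.00028). CAT, the catalase that breaks down hydrogen peroxide, rose by 1.09 (SE 0.25, adjusted p = 0.0026). SLC3A2, the heavy chain of the cystine transporter, fell by 1.504 (SE 0.12, adjusted p = 1.7e-06), from 176 ± 9.46 to 61.8 ± 4.50 FPKM. GPX8, a peroxidase of the endoplasmic reticulum, fell by 1.25 (SE 0.13, adjusted p = 7.8e-06). These 6 directions were the same under TPM and the other scalings tried, but under TPM the log2 fold changes of CAT (0.24), IDH2 (0.75) and ABCC3 (0.95) were inside the fold threshold, while GLRX (2.50), SLC3A2 (-2.35) and GPX8 (-2.04) stayed beyond it. Relative to the median of all genes under that scaling, CAT stood at 0.91, IDH2 at 1.42, ABCC3 at 1.62, GLRX at 3.18, SLC3A2 at -1.68 and GPX8 at -1.36.

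In the glutathione list 2 of 14 genes tested were called, both lower, with a list median of -0.18. In the thioredoxin and peroxiredoxin list 1 of 12 was called (GLRX, higher), with a median of -0.21. The NADPH list had 1 of 7 (IDH2, higher; median -0.22), the list of other NRF2 targets and detoxification genes 1 of 11 (ABCC3, higher; median -0.11), and the superoxide and peroxide list 1 of 3 (CAT, higher; median -0.39). None of the 8 haem and iron genes (median 0.58) and none of the 7 CNC, large MAF and KEAP1 ligase genes (median 0.14) was called. At adjusted p alone, 1 was higher and 5 lower in the glutathione list, 1 and 4 in the thioredoxin and peroxiredoxin list, and 2 and 3 in the NADPH list. For other NRF2 targets it was 2 and 1, for superoxide and peroxide 1 and 1, for haem and iron 3 and 1, and for the CNC list 1 and 0. Over all genes, 8.76% were called higher and 9.51% lower, and at adjusted p alone 18.3% were higher and 23.2% lower. The plot of list genes shows them all.

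**Figure D5:**
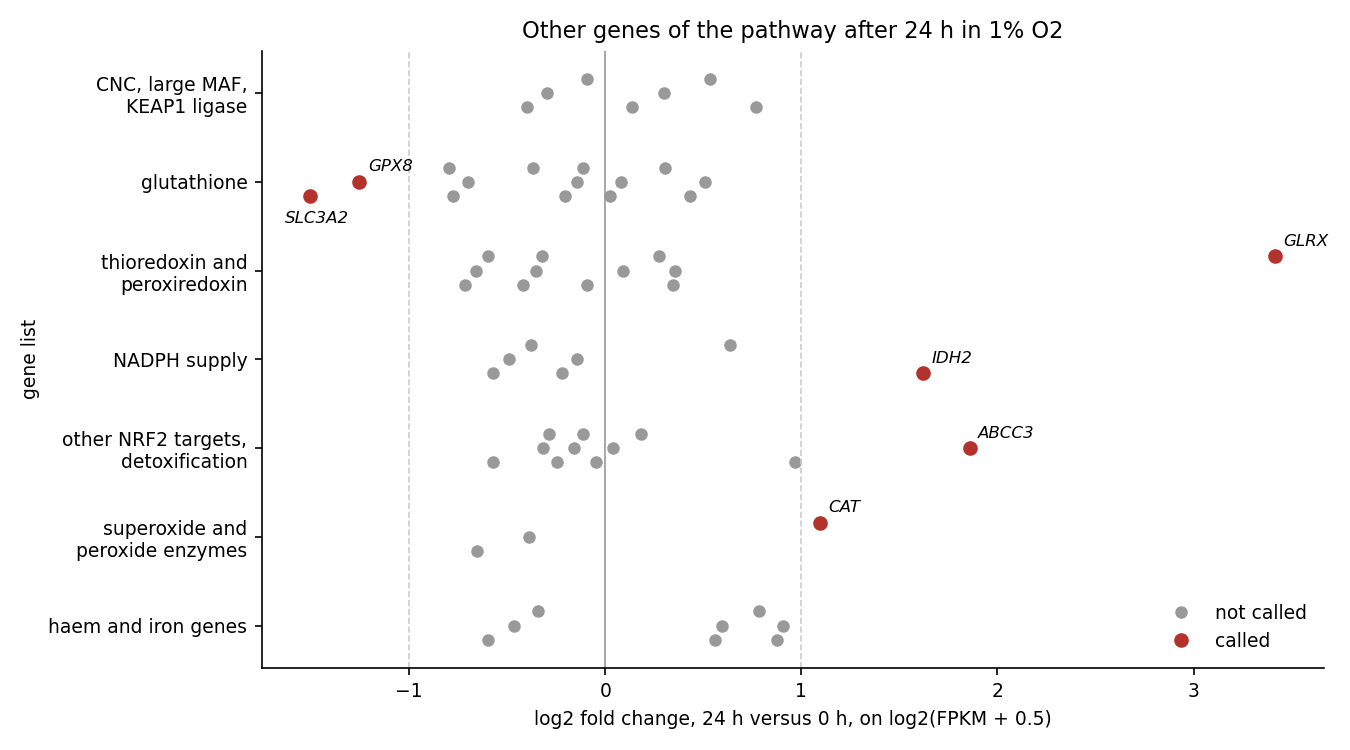
Log2 fold change at 24 h in 1% O2 relative to 21% O2 on log2(FPKM + 0.5) (x axis) for the 62 tested genes of 7 lists (y axis; vertical offsets within a list only separate points), each from 3 libraries per time point. Red points with names are the 6 called genes, and most grey points lie between the dashed lines at -1 and 1.

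The 5 genes whose profile over the 12 libraries was most like that of MAFF were DUSP5 (Pearson's r = 0.98), BTG1 (0.97), PIM1 (0.96), CHMP1B (0.96) and NR4A2 (0.95). These are correlations on log2(FPKM + 0.5) across libraries of 4 time points, so the points share those times, and no p is given. DUSP5, a phosphatase of nuclear ERK, went from 66.9 FPKM at 0 h to 156.5 at 2 h and 191 at 24 h. PIM1, a serine/threonine kinase, went from 4.45 to 13.7 and 22.5 FPKM, and NR4A2, an orphan nuclear receptor, from 2.73 to 10.0 and 12.8 FPKM.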

How the data were processed

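The authors aligned paired reads to hg19 with Mapsplice, assembled transcripts per sample with Cufflinks, merged them, compared them with Ensembl and deposited the FPKM of each transcript in each library; CASAVA 1.8.2 is named in their processing notes. No scaling between libraries is stated. Here, FPKM was summed per gene name and per start-site group (class codes = and j). Groups came from the sample labels. Sums were tested with limma 3.58.1 (R 4.3.3; lmFit and eBayes with trend, two-sided) on log2(FPKM + 0.5) with the 12 libraries in 1 fit, and p was adjusted by Benjamini-Hochberg over 16680 genes or 38233 start-site groups. A feature was called where the adjusted p was below 0.01 and the log2 fold change beyond 1 in either direction, as in the authors' rule. On this scale the changes of low genes are understated. Percentages of a gene's FPKM were tested likewise over 30980 groups (adjusted p under 0.05). The fits were tested on simulated data.

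The members and lists were chosen with earlier results of these data known. Text names all members, start-site groups with at least 5% of a gene's FPKM or a call, up to 3 called genes each way per list, 6 hypoxia markers and the 5 genes most like MAFF of mean FPKM at least 1. Sequences are RefSeq's (GRCh38.p14); transcript types and gene positions are GENCODE's on GRCh37. Replicate numbers of the labels were checked for pairing. Deviations of same-numbered libraries correlated at 0.13 to 0.36 over 3 pairs between 2 h and 0 h, and others at up to 0.046, so the numbers were taken to pair those. The range was 0.095 to 0.34 for 1 h (others up to 0.0042) and -0.0008 to 0.24 for 24 h (others up to 0.17). The main fits used no block, and values from a fit with replicate number as a block are marked as such. Python 3.11.15, numpy 2.4.6, pandas 2.3.3 and matplotlib 3.10.9 were used.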

Additional observations from a re-analysis of the deposited data

Results flagged for a closer look

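GCLM was singled out because its change in low oxygen differed between time points. At 2 h its log2 fold change from 21% O2 was 0.03 (SE 0.25, adjusted p = 0.97) and at 24 h it was -1.14. The contrast of 24 h with 2 h, in which the 0 h libraries cancel, was -1.17 (SE 0.25, adjusted p = 0.0021), with all 3 libraries at 24 h below all 3 at 2 h. It was not called under TPM, without 2 h replicate 1, without 24 h replicate 1, without all libraries of replicate 1 or without all those of replicate 2.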

How the results depend on the processing

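Over 27 settings (24 of them run at 1 h and 2 h), 703 of 750 log2 fold changes of members kept their direction and side of the threshold, and 112 of 137 counts of calls stayed within 1.5 times the reported count. Part of this was fixed in advance. Leaving out a library of another time point cannot change a log2 fold change, and genes far from the threshold could hardly change side. The totals are therefore no rate of stability. No member was called at 1 h in the 24 settings run there. The count at 2 h was 0 instead of 1 with no filter, under TPM and with the 6 libraries of the contrast alone (0 to 1 with single libraries left out); the MAFF log2 fold change ranged from 0.64 (TPM) to 1.89 and its adjusted p from 0.0006 to 0.15. The count at 24 h was 5 instead of 3 by adjusted p alone (2 to 3 with single libraries left out), and TPM kept GCLM, lost MAFF and MAFK and added KEAP1 (-1.48, adjusted p = 0.0041). The count between 2 h and 24 h was 0 under TPM, 2 by adjusted p alone, 0 to 1 with single libraries left out, and 0 without all libraries of replicate 1 or of replicate 2, alternatives added after seeing the data. Called start-site groups were 3 under TPM and 3 with 6 libraries (4 to 7 with single libraries left out), and changed shares 0 to 2 with single libraries left out. With the replicate block, shares went from 3 to 1, MAFF at 2 h kept its call (adjusted p = 0.0047), and no other call of a member gene changed; over all genes the block gave 0, 4 and 3106 calls at 1, 2 and 24 h, against 1, 3 and 3048.

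TPM reversed, at 1 h, MAFG (-0.38), MAFK (-0.52), BACH1 (-0.10), NFE2L2 (-0.58) and NQO1 (-0.59), at 2 h MAFG (-0.52), MAFK (-0.42), BACH1 (-0.42), NFE2L2 (-1.03), NQO1 (-1.04) and GCLM (-1.03), and at 24 h MAFG (-0.55), HMOX1 (-0.54) and NQO1 (-0.30). Under TPM the median of all genes stood at -0.53, -0.88 and -0.68 at the 3 times. Class code = alone gave GCLM -0.055 at 2 h. Leaving out single libraries reversed only values near 0, with ranges at 1 h of -0.077 to 0.21 for MAFK, -0.12 to 0.0020 for NFE2L1, -0.16 to 0.023 for HMOX1, -0.079 to 0.14 for NQO1 and -0.24 to 0.16 for GCLM. The ranges at 2 h were -0.0041 to 0.061 for NFE2L2, -0.14 to 0.020 for HMOX1, -0.076 to 0.15 for NQO1 and -0.20 to 0.21 for GCLM. The precision rests on 3 libraries per time point, since read numbers were not analysed here.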

Other observations

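The following genes passed an adjusted p of 0.01 at 24 h without passing the fold threshold and were chosen after their values were seen. The ferritin chains FTH1 and FTL, which store iron, went from 1233 ± 102.5 to 2262 ± 123 FPKM (SD, n = 3; log2 fold change 0.88, adjusted p = 1.4e-05) and from 869.9 ± 85.2 to 1496 ± 90.2 (0.79, adjusted p = 0.0024). BLVRB, a biliverdin reductase, was higher by 0.91 (adjusted p = 6.2e-05), whereas HMOX2, the constitutive haem oxygenase, was lower (-0.60, adjusted p = 0.00019). Under TPM scaling the differences of FTH1, FTL and BLVRB were 0.0028, -0.089 and 0.043, or 0.68, 0.59 and 0.72 above the median of all genes under that scaling. That of HMOX2 was -1.43, or -0.76 relative to the median.

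Within NFE2L1, the transcript ENST00000362042 stood at 11.02, 9.35 and 10.2 FPKM at 0 h and 4.79, 4.19 and 4.10 at 24 h, without overlap, while its start-site group as a whole changed by -0.29 (SE 0.09, adjusted p = 0.029). This transcript was picked after its values were seen and was not tested.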
